A study of Homo sapiens with 8 samples.

Results

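Kinesins are motor proteins that move along microtubules, and the kinesin family of MEG-01 cells was followed across 4 treatments. Members were taken as every protein-coding row of the deposited gene tables whose symbol starts with KIF or KIFC followed by a digit. That rule found 42 genes among 60754 rows, of which 20004 are protein coding. One of the 42, KIF1BP, is a kinesin-binding protein and not a kinesin, which left 41 kinesins. For description the 42 genes were divided by textbook role into 13 mitotic kinesins, 15 transport kinesins and 14 other kinesins. The mitotic list also named KIF23, which was not among the rows found and so has no part in the counts and sums below.

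MEG-01 is an established human line from a megakaryoblastic leukaemia. Cells received 100 nM phorbol 12-myristate 13-acetate (PMA, an activator of protein kinase C that drives the line toward megakaryocytes) and, with it, Ceefourin 2 at 20 µM (a blocker of the export pump ABCC4) for 48 hours, the same PMA without Ceefourin 2 for 48 hours, Ceefourin 2 alone for 48 hours, or were left untreated (labelled UT). The sources used here give neither the dose of Ceefourin 2 as a single agent nor a vehicle or a harvest time for the untreated cells. Each of the 4 groups has 2 libraries of polyadenylated RNA from 1 cell line. The labels do not say that the 2 libraries of a group came from separate cultures, so the p values below measure the spread between these libraries, which may be technical.

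A kinesin holds a motor domain that turns ATP hydrolysis into steps along a microtubule. Mitotic kinesins build and focus the spindle, move and align chromosomes and complete cytokinesis, and their transcripts are known to accumulate late in the cell cycle. Transport kinesins carry vesicles, organelles and protein complexes in cells at any stage of the cycle, usually through adaptor proteins. Megakaryocytes enlarge and become polyploid as they mature, and microtubule motors take part in the formation of platelets from their long extensions.

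Library depth lay between 44430292 and 89950886 expected counts. Mitochondrially encoded genes took 8.32% and 4.94% of counts with PMA plus Ceefourin 2, 9.61% and 4.53% with PMA, 2.77% and 3.11% with Ceefourin 2, and 2.55% and 3.94% without treatment, so the first library of either PMA group was the highest. All 8 tested genes of a 9-gene megakaryocyte list rose with PMA (edgeR adjusted p below 0.05, as for 27.9% of all tested genes), and the list summed to 1410 and 1530 TPM (RSEM's transcript abundance, adjusted for length and library size) in PMA, against 614 and 624 TPM in untreated cells. Its ninth gene, PF4, a defining platelet chemokine, stayed below 0.1 TPM in all 8 libraries. Erythroid markers summed to 220 and 223 TPM in PMA and to 852 and 790 TPM in untreated cells, with no marker of the 5 at or below 0.1 TPM. Of these, 4 fell and ALAS2 rose (log2 fold change 0.58), and HBA2 made up the largest part of the untreated sum, with 475 and 452 TPM. The 4 endothelial and stromal markers summed to 201 and 245 TPM in PMA against 75.3 and 71.2 TPM in untreated cells, and PECAM1, which megakaryocytes also express, supplied 186 and 236 TPM of that in PMA and 75.05 and 71.03 TPM in untreated cells. CDH5, which defines endothelium, had 0.04 and 0.08 TPM in PMA against 0 and 0.03 TPM in untreated cells, COL1A1 had 14.6 and 8.85 TPM in PMA against 0.12 and 0.12 TPM in untreated cells, and COL3A1 stayed below 0.1 TPM throughout. The 5 monocyte markers summed to 22.8 and 24 TPM in PMA against 58.6 and 52.8 TPM in untreated cells, with MPO below 0.1 TPM in all libraries. LYZ and ITGAM carried that sum and fell, CSF1R rose on 0.31 and 0.49 TPM in PMA against 0 and 0.02 TPM in untreated cells, and CD14 was not called, so that the median log2 fold change of the 4 tested markers was 0.09. The part of these marker changes in the results below was not tested.

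Of the 42 kinesin genes, 35 had enough counts to be tested, among them 12 mitotic, 13 transport and 10 other kinesins. The 7 genes below the count filter were KIF2B, KIF1A, KIF17, KIF12, KIF25, KIF6 and KIF7, none of which went above 0.17 TPM in any library. Among mitotic kinesins the highest levels in TPM belonged to KIF2C, a microtubule depolymerase of the centromere, and KIF22, a chromosome-arm motor. KIF2C had 32.9 and 41.9 TPM in PMA plus Ceefourin 2, 30.9 and 43.98 TPM in PMA, 97.2 and 113 TPM in Ceefourin 2, and 93.4 and 96.1 TPM in untreated cells. Both PMA groups lay below both groups without PMA, by more than the gap between libraries of a group. KIF22 had 39.1 and 40.95 TPM in PMA plus Ceefourin 2, 41.2 and 45.4 TPM in PMA, 93.6 and 99.2 TPM in Ceefourin 2, and 93.5 and 89.3 TPM in untreated cells. KIFC1, a minus-end motor that focuses spindle poles, had 21.2 and 23.0 TPM in PMA plus Ceefourin 2, 19.8 and 22.5 TPM in PMA, 54.3 and 49.8 TPM in Ceefourin 2, and 50.5 and 42.8 TPM in untreated cells. Neither gene showed overlap between libraries with and without PMA.

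KIF5B, the ubiquitous heavy chain of conventional kinesin, led the transport list with 51.7 and 51.4 TPM in PMA plus Ceefourin 2, 49.5 and 49.5 TPM in PMA, 72.1 and 68.2 TPM in Ceefourin 2, and 61.0 and 56.5 TPM in untreated cells. Here the PMA libraries sat below the untreated ones on the TPM scale, and the count-based test below gives another picture of this gene. KIF1C, a motor for vesicles and messenger RNA, had 23.3 and 22.2 TPM in PMA plus Ceefourin 2, 22.0 and 20.9 TPM in PMA, 31.0 and 29.1 TPM in Ceefourin 2, and 31.1 and 23.8 TPM in untreated cells. KIF1B, which carries synaptic vesicle precursors and mitochondria, had 11.3 and 10.5 TPM in PMA plus Ceefourin 2, 10.5 and 9.73 TPM in PMA, 17.4 and 13.4 TPM in Ceefourin 2, and 15.96 and 10.6 TPM in untreated cells. On this scale every library with PMA lay below every library without it for KIF1C, while for KIF1B the libraries with PMA overlapped the untreated ones.

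KIF2A, a depolymerase related to KIF2C that also works outside mitosis, led the other kinesins with 46.1 and 41.9 TPM in PMA plus Ceefourin 2, 45.8 and 40.5 TPM in PMA, 46.4 and 43.7 TPM in Ceefourin 2, and 46.8 and 42.1 TPM in untreated cells. Its 4 groups overlapped. KIF9, a motor of cilia and flagella, had 9.73 and 8.82 TPM in PMA plus Ceefourin 2, 11.8 and 9.55 TPM in PMA, 15.4 and 13.5 TPM in Ceefourin 2, and 15.4 and 14.2 TPM in untreated cells. KIF21B, which limits microtubule growth, had 12.1 and 12.6 TPM in PMA plus Ceefourin 2, 11.5 and 12.8 TPM in PMA, 5.22 and 12.05 TPM in Ceefourin 2, and 7.25 and 8 TPM in untreated cells. The libraries with PMA were below those without it for KIF9, and above the untreated ones for KIF21B, whose Ceefourin 2 libraries stood far apart.

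**Figure D1:**
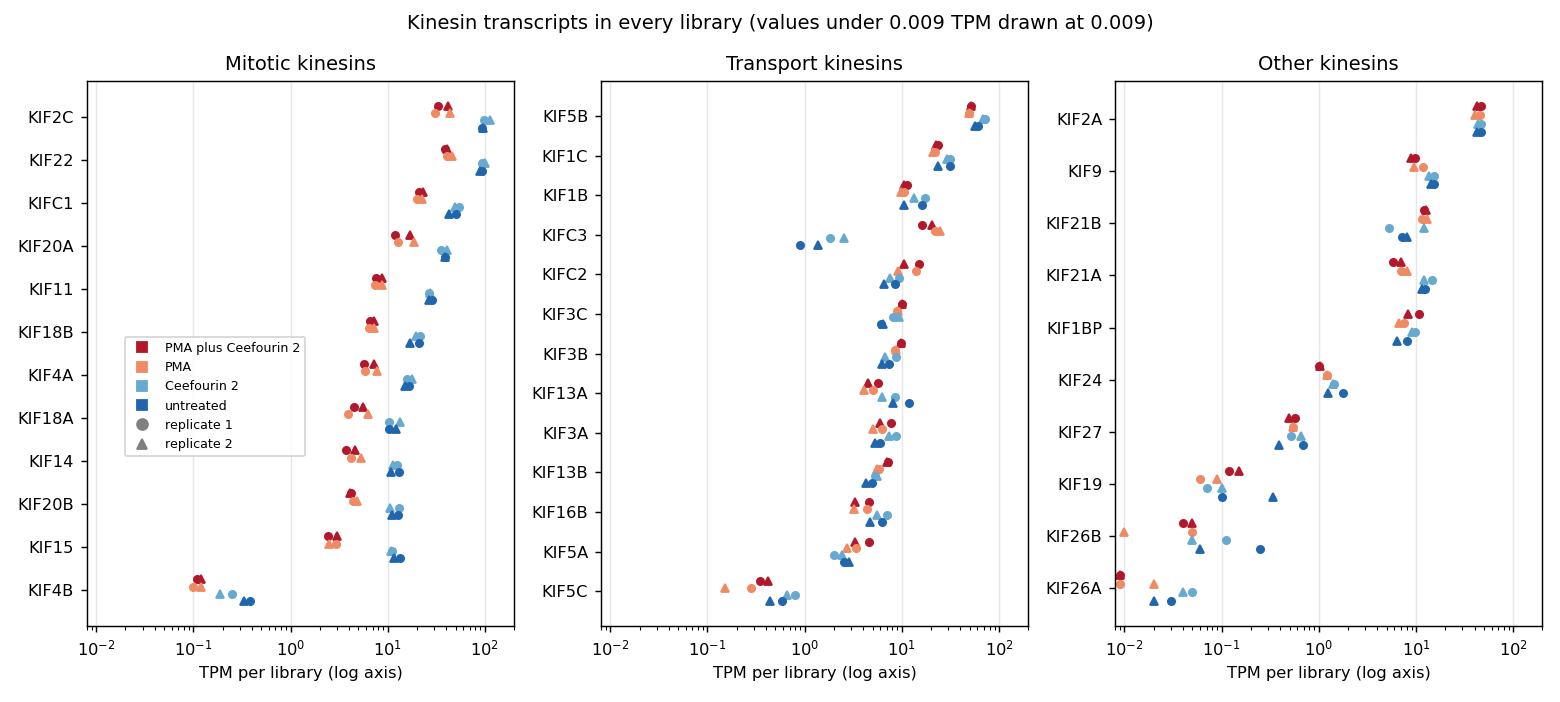
TPM per library on a log axis for the 35 tested kinesin genes, in panels for mitotic, transport and other kinesins, with groups in colour and replicates as circles and triangles. PMA libraries lie left of libraries without PMA for each of the 12 mitotic kinesins, and KIFC3 lies far to the right with PMA.

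The first question was what PMA alone did to each role. Of the 35 tested kinesins, 6 rose and 15 fell with PMA relative to untreated cells (edgeR quasi-likelihood test, Benjamini-Hochberg adjusted p below 0.05), while 53.6% of all 17314 tested genes were called, 27.9% higher and 25.7% lower. The mitotic kinesins all fell, 12 of 12, with a median log2 fold change of -1.08 and a range of -1.93 to -0.86, beside a median of 0.00 over all tested genes. Among transport kinesins 5 rose, 2 fell and 6 were not called, with a median of 0.25. Among other kinesins 1 rose, 1 fell and 8 were not called, with a median of 0.05. Tested with limma on log2(TPM + 1), where the median of all genes shifted to -0.22, the split of the kinesin calls was 2 higher and 15 lower, with 18.7% of genes higher and 37.4% lower. The libraries are bulk samples, in which fewer cells in mitosis and less of a transcript per cell cannot be told apart.

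KIF15 and KIF11 are the pair of motors that push the spindle poles apart, and they showed the strongest falls among well-counted mitotic kinesins. KIF15, on chromosome 3 at 44761717 to 44873376 of GRCh38, had 10.7 and 10.3 CPM (counts relative to library size, with TMM scaling) in PMA, against 41.4 and 38.3 CPM in untreated cells. That is a log2 fold change of -1.93 with a standard error of 0.11 (edgeR adjusted p = 7.5e-06). KIF11, on chromosome 10 at 92593286 to 92655395, had 32.9 and 38.4 CPM in PMA and 101 and 104 CPM in untreated cells, a log2 fold change of -1.52 with a standard error of 0.12 (edgeR adjusted p = 3.1e-05). For both genes the libraries of the groups did not overlap.

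KIF18B, which trims the plus ends of spindle microtubules, had 20.4 and 23.7 CPM in PMA against 53.8 and 47.6 CPM in untreated cells, a log2 fold change of -1.20 (edgeR adjusted p = 0.00015, SE 0.13). KIF20B, a motor of late mitosis and cytokinesis, stood at 24.5 and 26.4 CPM in PMA and at 57.9 and 48.5 CPM in untreated cells, a log2 fold change of -1.06 (edgeR adjusted p = 0.00019, SE 0.12). Every PMA library lay below every untreated library for both. KIF22 had 59.6 and 64.6 CPM in PMA against 112 and 119 CPM in untreated cells (log2 fold change -0.89, edgeR adjusted p = 0.00029), and KIF2C had 67.6 and 95 CPM in PMA against 162 and 184 CPM in untreated cells (log2 fold change -1.09, edgeR adjusted p = 0.0026). The first PMA library was the lower one for KIF2C, as it was for KIF22.

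The remaining mitotic kinesins fell by similar amounts. KIF20A, which brings the chromosomal passenger complex to the midzone, changed by -1.08 on the log2 scale, KIF14, a cytokinesis motor that binds citron kinase, by -1.08, and KIF4A, a chromosome and midzone motor, by -1.0. KIF18A, which dampens chromosome movements at the metaphase plate, changed by -0.93 and KIFC1 by -0.86. For KIF18A, leaving out PMA replicate 1 took the value to -0.68 and the adjusted p of edgeR to 0.06. KIF4B changed by -1.40, but it had only 0.390 and 0.476 CPM in PMA and 1.16 and 1.11 CPM in untreated cells, and as a near-identical copy of KIF4A its reads could be assigned to either gene.

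In the 4 libraries with PMA, all 12 tested mitotic kinesins were lower than in all 4 libraries without it, as were 28.5% of all tested genes. Across the 17 other ways of testing that were tried, 10 of the 12 were called lower each time, the exceptions being KIF18A and KIF4B. The sum of mitotic kinesin TPM was 140 and 173 in PMA against 392 and 372 in untreated cells, a log2 difference of -1.30, or -1.20 with mitochondrially encoded genes taken out of the TPM. KIF22 supplied 29.4% and 26.3% of that sum in PMA and 23.8% and 24.0% in untreated cells. KIF2C supplied 22.1% and 25.4% in PMA and 23.8% and 25.8% in untreated cells. The shares of these 2 genes moved little beside the size of the sum, while log2 fold changes of single members ran from -1.93 to -0.86.

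Transcripts of proteins that work with mitotic kinesins moved the same way. All 18 listed mitotic partners fell with PMA, with a median log2 fold change of -1.0, where 25.7% of all tested genes fell. The lowest p values belonged to CENPF, a kinetochore protein (-1.17), KNSTRN, a kinetochore adaptor (-1.04), INCENP, the scaffold of the passenger complex carried by KIF20A (-0.92), and PLK1, a mitotic kinase (-1.47), with edgeR adjusted p values of 4.2e-05, 5.7e-05, 0.00025 and 0.00026. CENPE, a kinetochore kinesin whose symbol lies outside the rule and which was picked out after its values were seen, changed by -0.89 (edgeR adjusted p = 0.0021). General proliferation markers fell as well, by 1.16 for MKI67, 1.12 for PCNA and 1.02 for TOP2A on the log2 scale, and their part in the fall of the mitotic kinesins was not tested.

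**Figure D2:**
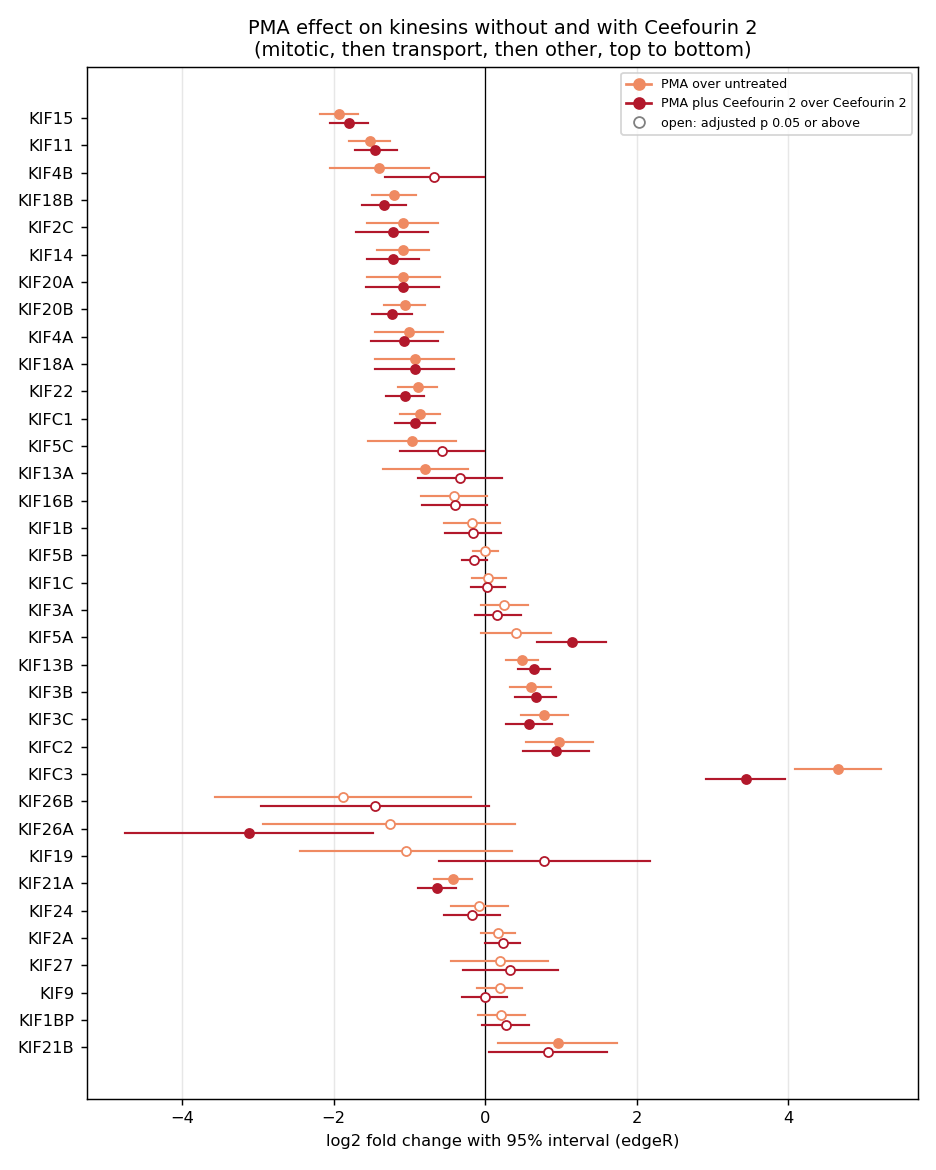
Log2 fold change with its 95% interval (edgeR) for the 35 tested kinesins, PMA plus Ceefourin 2 over Ceefourin 2 in dark red and PMA over untreated in orange, with filled points for adjusted p below 0.05. Mitotic kinesins form a block between -1.93 and -0.67, transport kinesins lie on both sides of 0, and KIFC3 stands at 4.66 and 3.44.

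Promoters are shown because 12 mitotic kinesins moved together, and late cell-cycle genes are known to share a short element, the CHR (letters TTTGAA or TTCGAA), often with CCAAT boxes nearby. The window searched ran from 250 bases before to 50 bases after the RefSeq start on GRCh38.p14, on both strands, and 34 of the 42 genes had an entry. CHR letters occurred in 10 of 13 mitotic kinesins (76.9%), in 1 of 11 transport kinesins (9.09%, KIF5B), in 1 of 10 other kinesins (KIF24) and in 19.5% of 27305 genes. CCAAT letters occurred in 76.9% of mitotic, 36.4% of transport, 40.0% of other kinesins and 39.7% of all genes. KIF2C and KIF20A fell with PMA without these exact CHR letters in this window, and KIF5B held them and was not called in counts. The matches are a description of the letters only, and their part in the fall was not tested. The 100 bases before the start are given for 5 mitotic kinesins with CHR letters there and for KIF3B and KIF3C, transport kinesins that rose, as contrast. CHR and CCAAT letters on either strand are in capitals (TTCAAA and ATTGG are the other strand). The KIF11 bases lie at chr10:92593030-92593129 (plus strand), KIF15 at chr3:44761694-44761793 (plus), KIF18A at chr11:28108157-28108256 (minus), KIF22 at chr16:29790651-29790750 (plus), KIF4A at chrX:70290004-70290103 (plus), KIF3B at chr20:32277551-32277650 (plus) and KIF3C at chr2:25982498-25982597 (minus).
KIF11: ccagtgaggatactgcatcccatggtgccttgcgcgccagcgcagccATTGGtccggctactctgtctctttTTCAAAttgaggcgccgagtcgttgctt
KIF15: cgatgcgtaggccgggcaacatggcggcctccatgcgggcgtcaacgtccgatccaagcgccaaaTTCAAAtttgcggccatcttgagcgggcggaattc
KIF18A: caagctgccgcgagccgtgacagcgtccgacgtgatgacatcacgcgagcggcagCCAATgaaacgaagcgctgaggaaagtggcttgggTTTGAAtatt
KIF22: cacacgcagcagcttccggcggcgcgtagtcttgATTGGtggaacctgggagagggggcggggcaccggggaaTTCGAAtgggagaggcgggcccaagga
KIF4A: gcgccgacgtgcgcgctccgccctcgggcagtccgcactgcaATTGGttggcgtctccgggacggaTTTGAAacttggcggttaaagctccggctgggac
KIF3B: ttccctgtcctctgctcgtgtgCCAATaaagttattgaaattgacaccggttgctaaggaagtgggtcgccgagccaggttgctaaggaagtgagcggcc
KIF3C: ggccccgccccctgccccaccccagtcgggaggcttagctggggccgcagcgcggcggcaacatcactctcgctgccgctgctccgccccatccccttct
The CHR letters began 28 bases before the RefSeq start in KIF11, 35 in KIF15, 10 in KIF18A, 27 in KIF22 and 34 in KIF4A. In KIF11, KIF18A, KIF22 and KIF4A the CCAAT letters stood farther from the start, at 53, 45, 66 and 58 bases. For another RefSeq start of KIF22, the same CHR letters began 244 bases before it. The gene span of KIF15 given above begins within its printed bases, so such distances depend on the start used. KIF3C held neither motif in these bases, and KIF3B held CCAAT letters alone.

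Among transport kinesins KIFC3, a minus-end motor known from apical transport and cell junctions, rose most. It lies on chromosome 16 at 57758217 to 57863053 of GRCh38. It had 45.9 and 55.3 CPM in PMA against 1.52 and 2.45 CPM in untreated cells, a 25.2-fold difference (log2 fold change 4.66, edgeR adjusted p = 5.6e-06, SE 0.24), and the groups lay far apart. KIFC3 supplied 13.7% and 16.1% of the summed transport kinesin TPM in PMA and 0.551% and 0.991% in untreated cells. KIFC2, a related C-terminal motor known from neurons in mouse, had 26.3 and 20.1 CPM in PMA against 12.2 and 11.4 CPM in untreated cells (log2 fold change 0.98, edgeR adjusted p = 0.0032, SE 0.19). Both PMA libraries were above both untreated libraries for KIFC2.

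In the heterotrimeric kinesin-2 motor, which pairs KIF3A with KIF3B or KIF3C and binds cargo through KIFAP3, transcripts of several parts rose. KIF3C had 34.4 and 32.0 CPM in PMA and 17.8 and 20.8 CPM in untreated cells, a log2 fold change of 0.78 (edgeR adjusted p = 0.0017, SE 0.13). KIF3B had 46.2 and 47.3 CPM in PMA and 32.2 and 29.4 CPM in untreated cells, a log2 fold change of 0.60 (edgeR adjusted p = 0.0032, SE 0.12). In both, the PMA libraries stood above the untreated ones without overlap. KIFAP3, the accessory subunit, had 83.3 and 77.1 CPM in PMA against 33.2 and 38.2 CPM in untreated cells, a log2 fold change of 1.17 (edgeR adjusted p = 5.7e-05, SE 0.10). KIF3A, at 18.9 and 17.7 CPM in PMA and 15.8 and 14.9 CPM in untreated cells, was not called (log2 fold change 0.25, edgeR adjusted p = 0.14), although with the replicate number as a block edgeR gave an adjusted p of 0.03. That blocked fit called 7 kinesins higher and 17 lower, beside 32.7% and 31.7% of all tested genes.

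KIF13B, a plus-end motor for membrane cargo, had 38.9 and 37.8 CPM in PMA against 28.3 and 26.5 CPM in untreated cells, a log2 fold change of 0.49 (edgeR adjusted p = 0.0029, SE 0.09) with no overlap. KIF13A, an endosome motor, fell by 0.79 on the log2 scale (22.7 and 16.9 CPM in PMA, 39.9 and 28.8 CPM in untreated cells, edgeR adjusted p = 0.024), and KIF5C, a conventional kinesin heavy chain known from neurons, fell by 0.96 (1.41 and 0.886 CPM in PMA, 2.27 and 2.24 CPM in untreated cells, edgeR adjusted p = 0.013). Both falls were lost when single libraries were left out, KIF13A without untreated replicate 1 (edgeR adjusted p = 0.17) or PMA replicate 2 (0.14) and KIF5C without the same libraries (0.051 and 0.073). On log2(TPM + 1), limma no longer called KIF13B (adjusted p = 0.13), KIF3B (0.11) or KIFC2 (0.094), whose values there were 0.24, 0.31 and 0.53 beside an all-gene median of -0.22.

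KIF5B was the steadiest abundant member by counts, with 258 and 257 CPM in PMA and 256 and 257 CPM in untreated cells (log2 fold change 0.00, 95% interval -0.16 to 0.17). On the TPM scale the same gene was called lower by limma, by -0.24 with an adjusted p of 0.035, close to the all-gene median of -0.22 on that scale. KIF1C had 84.8 and 76.1 CPM in PMA and 83.4 and 72.8 CPM in untreated cells (log2 fold change 0.04, 95% interval -0.18 to 0.27). KIF1B had 80.6 and 74.4 CPM in PMA and 101 and 75.3 CPM in untreated cells, with overlapping libraries and a log2 fold change of -0.18. KIF5A, a conventional kinesin heavy chain best known from neurons, stood at 0.41 and KIF16B, an early endosome motor, at -0.41, neither called. KIF16B passed with the replicate block (edgeR adjusted p = 0.0024).

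The sum of transport kinesin TPM was 161 and 152 in PMA against 163 and 137 in untreated cells, so the groups overlapped. Gene by gene, 6 of 13 tested transport kinesins were higher in all 4 libraries with PMA than in all 4 without it, as were 30.1% of all tested genes, and 1 was lower. Mitotic kinesins therefore summed to 0.872 and 1.14 times the transport kinesins in PMA, against 2.40 and 2.71 times in untreated cells.

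**Figure D3:**
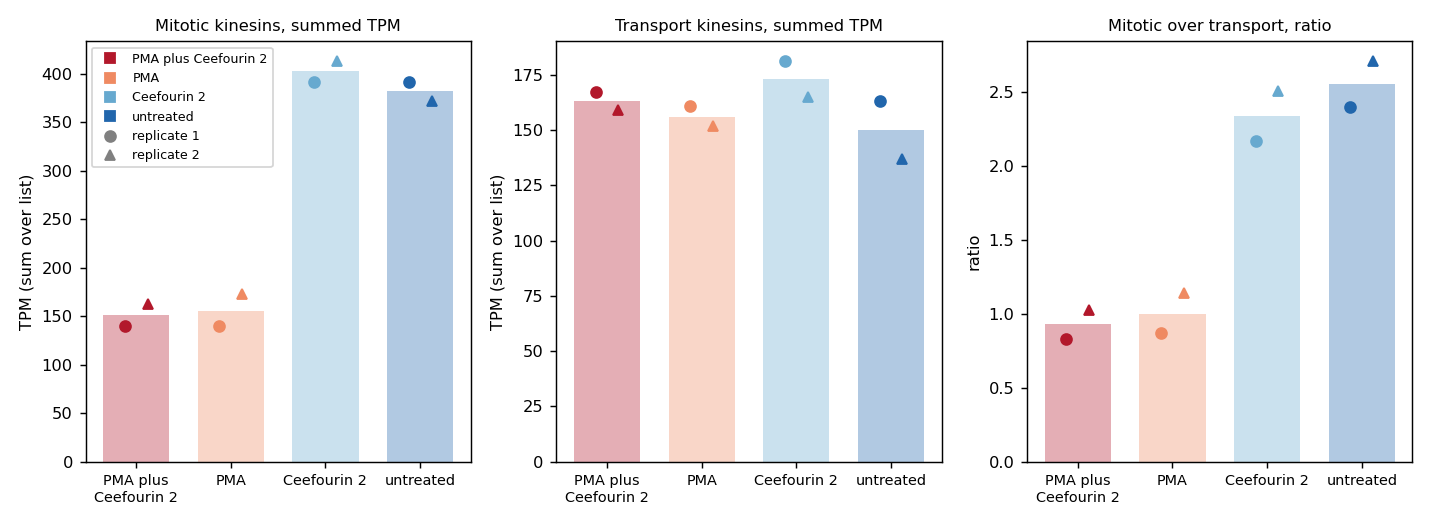
Summed TPM of the mitotic kinesins (left), of the transport kinesins (middle) and their ratio (right) in the 4 groups, with bars for the mean of 2 libraries and points for each library. The mitotic sum is 140 to 173 TPM with PMA and 372 to 413 TPM without it, while the transport sum stays between 137 and 181 TPM in all 8 libraries.

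Transcripts of proteins that load or activate transport kinesins rose more often than they fell, as did those for parts of the opposing motor. Of 18 tested adaptor genes, 12 rose and 3 fell with PMA, with a median log2 fold change of 0.38, while 27.9% and 25.7% of all tested genes rose and fell. The smallest p values were those of KIFAP3, of MAPK8IP3 (0.90) and SPAG9 (0.79), scaffolds that link kinesin-1 to cargo, and of MADD (0.66), an adaptor for KIF1-type motors. All kinesin light chains, picked out after their values were seen, rose, with KLC1 at 0.39, KLC2 at 0.76, KLC3 at 2.31 and KLC4 at 0.46 on the log2 scale, while the heavy chain KIF5B was not called in counts. KLC3 was scarce, with 0.475 and 0.519 CPM in PMA against 0.0208 and 0.163 CPM in untreated cells, and its fold change rests on few reads. The call was lost without untreated replicate 1 (edgeR adjusted p = 0.064), PMA replicate 1 (0.055) or PMA replicate 2 (0.061), and that of KLC4 without any 1 of the untreated, PMA or PMA plus Ceefourin 2 libraries (0.058 to 0.19). The 3 adaptors that fell were TRAK2 (-1.10), RHOT1 (-0.41) and CLSTN1 (-0.25), the first a mitochondrial adaptor and the second its receptor. Of 20 dynein and dynactin genes, which form the minus-end motor and its activator, 9 rose and none fell, led by DYNLT3 (1.14), DYNLT1 (0.97), ACTR1A (0.51) and NDEL1 (0.47). The remaining 11 were not called, DYNC1H1, the dynein heavy chain, among them at 0.08. These calls are on counts. In summed TPM the dynein and dynactin genes had 1360 and 1350 in PMA against 1370 and 1220 in untreated cells, which overlap. The adaptors summed to 434 and 425 TPM in PMA against 417 and 387 TPM in untreated cells.

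The other kinesins showed few changes. KIF21B had 90.6 and 98.4 CPM in PMA against 44.5 and 52.8 CPM in untreated cells, a log2 fold change of 0.96 (edgeR adjusted p = 0.044, SE 0.34). A fit of only these 2 groups also gave 0.96, with an edgeR adjusted p of 0.00049. That fit leaves out the libraries with Ceefourin 2 alone, which stood at 31.5 and 77.8 CPM. The call of KIF21B did not hold without any 1 of the untreated, PMA or PMA plus Ceefourin 2 libraries (adjusted p from 0.063 to 0.16) or with DESeq2 (0.059). KIF21A, its paralogue, had 23.4 and 25.3 CPM in PMA against 34.3 and 31.0 CPM in untreated cells, a log2 fold change of -0.42 (edgeR adjusted p = 0.01, SE 0.11), which was lost without untreated replicate 1 (0.081) or PMA replicate 1 (0.079). In these libraries the PMA values of KIF21B were all above, and those of KIF21A all below, the untreated values.

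KIF2A had 94.6 and 82.1 CPM in PMA and 79.7 and 77.2 CPM in untreated cells, a log2 fold change of 0.17 that was not called (edgeR adjusted p = 0.18). KIF9 depended on the scale. It had 8.48 and 7.87 CPM in PMA against 7.21 and 7.15 CPM in untreated cells (log2 fold change 0.19, edgeR adjusted p = 0.25), yet 11.8 and 9.55 TPM in PMA against 15.4 and 14.2 TPM in untreated cells, where limma called it lower by -0.44 (adjusted p = 0.026). KIF1BP stood at 0.21, KIF24, a centriole motor, at -0.08 and KIF27, a cilium-related kinesin, at 0.19 on the log2 scale. KIF19, KIF26A and KIF26B had less than 1 CPM in every library, with values of -1.05, -1.26 and -1.87 and no call, although KIF26B passed with the replicate block (edgeR adjusted p = 0.0066).

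The second question was whether Ceefourin 2 altered these transcripts in PMA-treated cells. No kinesin was called in PMA plus Ceefourin 2 against PMA (edgeR, 0 of 35, with 5 at an unadjusted p below 0.05, and 0 by DESeq2 and by limma), while 1.83% of all tested genes were called, 0.918% higher and 0.913% lower. The PMA libraries serve as reference here and as the treated group above. The mitotic kinesins other than KIF4B lay between -0.16 and 0.07 on the log2 scale, and their 95% intervals reached no farther than -0.58 and 0.58. They summed to 140 and 163 TPM in PMA plus Ceefourin 2 and to 140 and 173 TPM in PMA, which overlap.

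With the replicate number as a block, 2 kinesins rose, beside 4.74% of all tested genes. KIF13B had 47.5 and 48.0 CPM in PMA plus Ceefourin 2 against 38.9 and 37.8 CPM in PMA, a log2 fold change of 0.32 with edgeR adjusted p values of 0.043 with the block and 0.16 without it. KIF1BP had 19.8 and 16.8 CPM in PMA plus Ceefourin 2 against 15.0 and 12.3 CPM in PMA, a log2 fold change of 0.42 with edgeR adjusted p values of 0.035 with the block and 0.21 without it. Both genes were higher in both libraries with Ceefourin 2. Of the transport kinesins, 12 of 13 had a positive value, as had 8711 of all 17314 tested genes (medians 0.19 and 0.00). KIF5C was highest at 0.75 (edgeR adjusted p = 0.22). It had 1.75 and 2.14 CPM in PMA plus Ceefourin 2 and 1.41 and 0.886 CPM in PMA. KIFC3 was the exception at -0.31, with 36.1 and 45.4 CPM in PMA plus Ceefourin 2 and 45.9 and 55.3 CPM in PMA (edgeR adjusted p = 0.58).

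Ceefourin 2 without PMA was compared with untreated cells. Again no kinesin was called (edgeR, 0 of 35, with 6 at an unadjusted p below 0.05, against 1.68% of all tested genes called, 0.959% higher and 0.722% lower). DESeq2 called 1, KIFC3, with 1.63% of its genes higher, and limma called 0. Mitotic kinesins other than KIF4B lay between -0.19 and 0.13, with 95% intervals from -0.57 to 0.60, and summed to 392 and 413 TPM in Ceefourin 2 against 392 and 372 TPM in untreated cells. KIF4B, with 0.779 and 0.628 CPM in Ceefourin 2 and 1.16 and 1.11 CPM in untreated cells, stood at -0.69 (95% interval -1.30 to -0.08, edgeR adjusted p = 0.3) without overlap and was the mitotic kinesin with an unadjusted p below 0.05. KIF15 had 34.7 and 35.4 CPM in Ceefourin 2 and 41.4 and 38.3 CPM in untreated cells, the lowest value of the others at -0.19 (edgeR adjusted p = 0.51). Transport kinesins were positive in 11 of 13, as were 8454 of all 17314 tested genes, with medians of 0.16 and 0.00. Erythroid markers all fell in the same comparison, 5 of 5, and summed to 340 and 289 TPM in Ceefourin 2 against 852 and 790 TPM in untreated cells, whose part in the kinesin values was not tested.

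KIFC3 had 3.44 and 4.06 CPM in Ceefourin 2 against 1.52 and 2.45 CPM in untreated cells, a 1.87-fold difference (log2 fold change 0.90, 95% interval 0.35 to 1.45). Its adjusted p was 0.13 with edgeR, 0.0063 with edgeR and the replicate block, and 0.0027 with DESeq2. Both libraries with Ceefourin 2 were above both untreated ones. The block also brought KIF3A (log2 fold change 0.42, 22.6 and 18.6 CPM in Ceefourin 2, 15.8 and 14.9 CPM in untreated cells, edgeR adjusted p = 0.025) and KIF5B (0.23, 302 and 302 CPM in Ceefourin 2, 256 and 257 CPM in untreated cells, edgeR adjusted p = 0.028) past the threshold. In that fit KIF13A was lower (-0.36, 30.9 and 22.5 CPM in Ceefourin 2, 39.9 and 28.8 CPM in untreated cells, edgeR adjusted p = 0.019), although its libraries overlapped, and 4.66% and 3.6% of all tested genes were higher and lower.

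**Figure D4:**
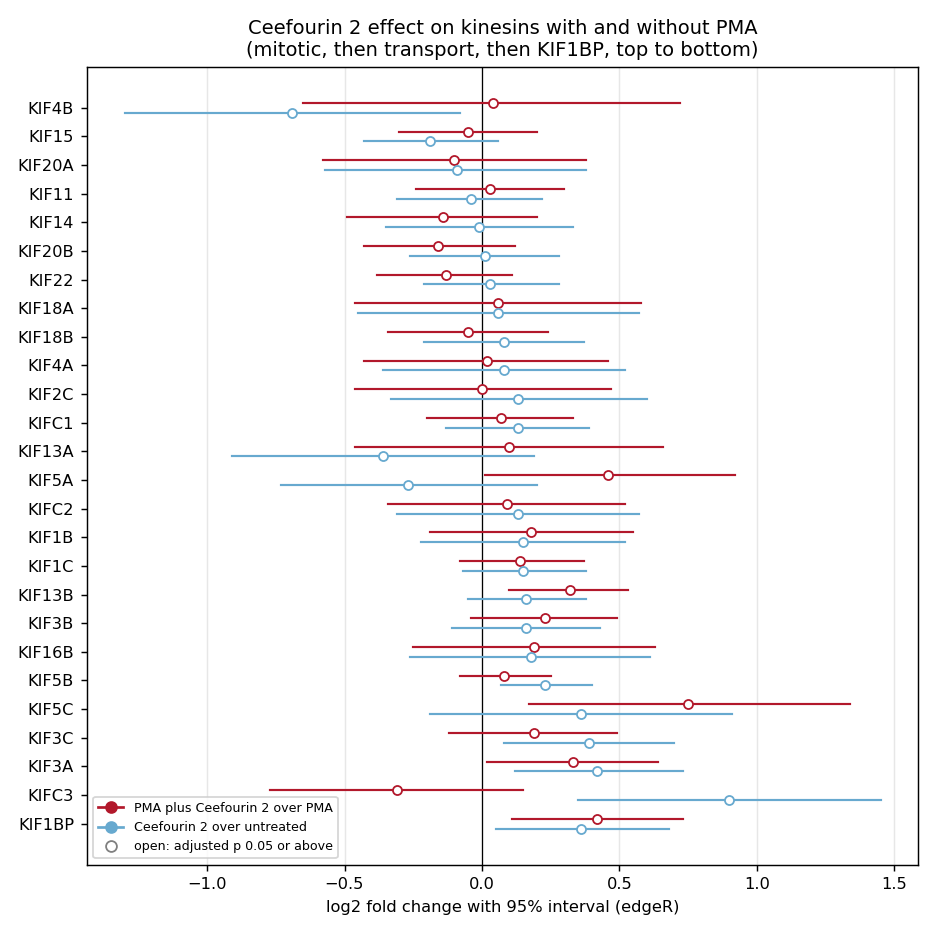
Log2 fold change with its 95% interval (edgeR) for mitotic kinesins, transport kinesins and KIF1BP, PMA plus Ceefourin 2 over PMA in dark red and Ceefourin 2 over untreated in blue. No point is filled, since none had an adjusted p below 0.05 in the main edgeR fit, and KIFC3 lies at -0.31 and 0.90.

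With Ceefourin 2 in both groups, PMA plus Ceefourin 2 was set against Ceefourin 2 alone. Of 35 kinesins 6 rose and 13 fell (edgeR adjusted p below 0.05), while 53.5% of all tested genes were called, 28% higher and 25.6% lower. These libraries are shared with the comparisons above, so the values are given beside them without a measure of likeness. Mitotic kinesins fell in 11 of 12 (median -1.15), all but KIF4B at -0.67 (edgeR adjusted p = 0.076). The call of KIF18A, at -0.93, was lost without PMA plus Ceefourin 2 replicate 1 (-0.76, edgeR adjusted p = 0.063). On log2(TPM + 1) the kinesin calls by limma were 2 higher and 16 lower, with 17.6% of genes higher and 39.2% lower.

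KIF15 had 9.38 and 10.8 CPM in PMA plus Ceefourin 2 against 34.7 and 35.4 CPM in Ceefourin 2 (log2 fold change -1.80, edgeR adjusted p = 1.1e-05, SE 0.11). KIF11 had 33.1 and 39.7 CPM in PMA plus Ceefourin 2 against 95.7 and 103 CPM in Ceefourin 2 (log2 fold change -1.45, edgeR adjusted p = 4.1e-05). KIF18B, at 19.7 and 22.8 CPM in PMA plus Ceefourin 2 and 56.2 and 50.7 CPM in Ceefourin 2, changed by -1.33, and KIF20B, at 22.9 and 22.8 CPM in PMA plus Ceefourin 2 and 57.0 and 50.2 CPM in Ceefourin 2, by -1.23. None of these 4, which had the smallest p values of the mitotic list here, showed overlap between the groups. How many of all tested genes lacked overlap in this comparison was not counted. The mitotic sum was 140 and 163 TPM in PMA plus Ceefourin 2 and 392 and 413 TPM in Ceefourin 2, and the ratio of mitotic to transport sums was 0.834 and 1.03 in PMA plus Ceefourin 2 against 2.17 and 2.51 in Ceefourin 2.

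KIFC3 again led the transport kinesins, with 36.1 and 45.4 CPM in PMA plus Ceefourin 2 against 3.44 and 4.06 CPM in Ceefourin 2, a 10.9-fold difference (log2 fold change 3.44, edgeR adjusted p = 1.6e-05, SE 0.23). KIF5A had 22.9 and 17.1 CPM in PMA plus Ceefourin 2 against 7.79 and 10.4 CPM in Ceefourin 2, a log2 fold change of 1.14 (edgeR adjusted p = 0.0019, SE 0.20), with no overlap. KIF13B had 47.5 and 48.0 CPM in PMA plus Ceefourin 2 against 29.3 and 32.0 CPM in Ceefourin 2 (log2 fold change 0.64, edgeR adjusted p = 0.00069). KIF3B had 53.5 and 55.8 CPM in PMA plus Ceefourin 2 against 38.1 and 30.8 CPM in Ceefourin 2 (log2 fold change 0.67, edgeR adjusted p = 0.0019), and neither gene overlapped between the groups. KIFC2 (0.94) and KIF3C (0.58) also rose. On log2(TPM + 1) limma called none of these 4, with adjusted p values of 0.05 for KIF13B, 0.088 for KIF3B, 0.096 for KIFC2 and 0.2 for KIF3C, and KIF3C was also lost in edgeR without replicate 1 of both PMA groups (adjusted p = 0.056). KIF21A fell by 0.63 on the log2 scale, with 24.1 and 22.8 CPM in PMA plus Ceefourin 2 and 38.2 and 34.5 CPM in Ceefourin 2. KIF26A, a kinesin without motor activity, was called lower on 3 counts in PMA plus Ceefourin 2 and 27 in Ceefourin 2, a ratio of 0.0918 (exact 95% interval 0.0178 to 0.298, counting error only), and the call was lost without PMA plus Ceefourin 2 replicate 2 (edgeR adjusted p = 0.059).

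KIF21B was not called here (log2 fold change 0.83, edgeR adjusted p = 0.07), with 94.4 and 100 CPM in PMA plus Ceefourin 2 and 31.5 and 77.8 CPM in Ceefourin 2. The 2 Ceefourin 2 libraries differed widely, and without the second the value was 1.62 (edgeR adjusted p = 0.00016). With the replicate block 9 kinesins rose and 17 fell, beside 32.7% and 30.9% of all tested genes. The additional ones were KIF2A, KIF21B and KIF1BP among the higher, with adjusted p values of 0.025, 0.018 and 0.035, and KIF16B, KIF13A, KIF26B and KIF5B among the lower, with 0.0024, 0.0032, 0.015 and 0.028.

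**Figure D5:**
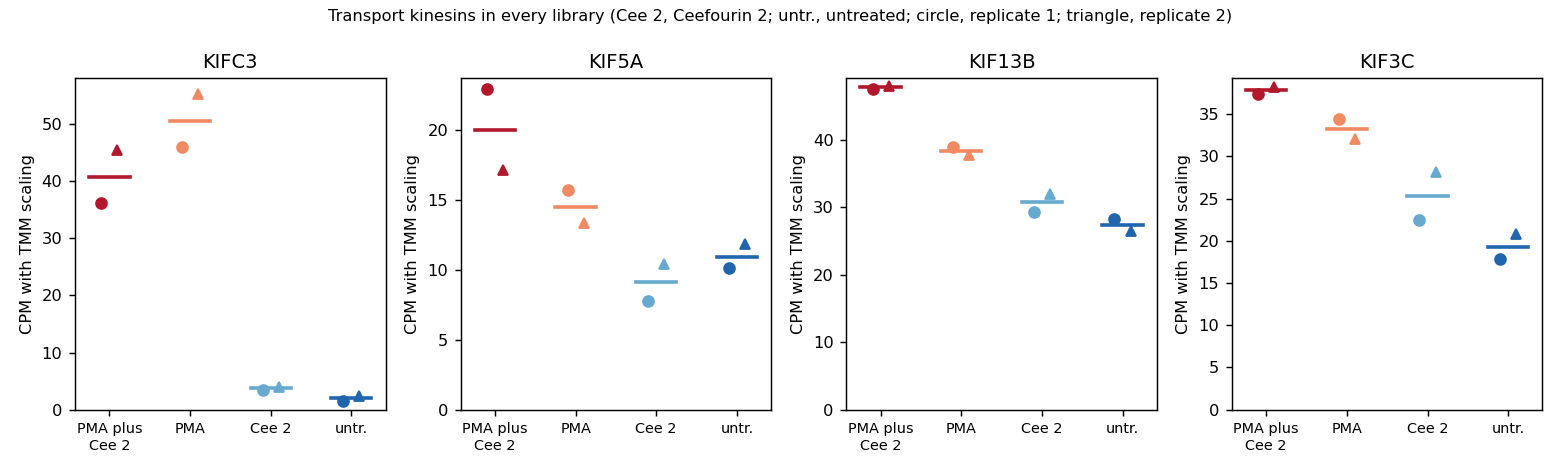
CPM with TMM scaling of KIFC3, KIF5A, KIF13B and KIF3C in the 8 libraries, with a line at the mean of each group of 2. KIFC3 is at 36.1 to 55.3 CPM with PMA and at 1.52 to 4.06 CPM without it, and KIF5A is highest in PMA plus Ceefourin 2 at 22.9 and 17.1 CPM.

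Whether the PMA effect differed with Ceefourin 2 was tested as an interaction. No kinesin was called (edgeR, 0 of 35, with 2 at an unadjusted p below 0.05), and 0.0116% of all tested genes were, all of them higher (0% lower). For mitotic kinesins other than KIF4B the difference of the log2 fold changes lay between -0.17 and 0.13, with 95% intervals within -0.79 and 0.72. KIFC3 had the lowest p, with a difference of -1.21 (SE 0.31, 95% interval -1.93 to -0.50, edgeR adjusted p = 0.34), with a PMA effect of 10.9-fold beside Ceefourin 2 and 25.2-fold without it. Its adjusted p was 0.018 with edgeR and the replicate block, where 0.768% of all tested genes were lower, and 0.008 with DESeq2, where 0.417% were lower. KIF5A had the other unadjusted p below 0.05, with a difference of 0.73 (edgeR adjusted p = 0.63).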

How the data were processed

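Polyadenylated RNA of MEG-01 cells was sequenced in 8 stranded libraries, 4 groups of 2. Reads were aligned to hg38 with STAR 2.7 and quantified with RSEM 1.3.1, per the submitters' processing notes. The gene tables hold the expected counts that the authors made with RSEM, not normalized, and TPM values that the authors computed per transcript length and library, both as deposited. Whether RSEM used the strand is not stated in the labels.

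After rounding of the expected counts, edgeR 4.0.16 (R 4.3.3) fitted all 8 libraries with a mean per group after filterByExpr (17314 genes) and TMM scaling (factors 0.92 to 1.083). The fit had 4 residual and 3.95 prior degrees of freedom and a biological coefficient of variation of 13.6%. P values were adjusted over all tested genes, and rose or fell means an adjusted p below 0.05. The alternatives were DESeq2 1.42.0, limma 3.58.1 on log2(TPM + 1) and log2(TPM + 0.1) with a mean of at least 0.5 TPM, other scalings and filters, a replicate block, 2-group fits and left-out libraries. The code was tested on simulated data.

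Libraries with the same replicate number deviated together from their group means (r from 0.137 to 0.363 over 17314 genes for every pair of groups). The block was therefore tried as a possible pairing. The main fit and its calls do not use it, and results with the block are given beside them. That pairing comes from the data and the numbers in the titles. Per-library values were given for the 4 called members with the smallest p in each role and comparison, with group totals for KIF26A. They were also given for the 3 highest in TPM, and partners were named by the 4 smallest p values. The members, roles and lists were chosen with earlier results of these data known. KIF1BP also stands in the adaptor list. Gene positions came from the GENCODE annotation of GRCh38, and promoters from RefSeq on GRCh38.p14. Protein sequences were not used here. One of the marker lists is not reported here.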

Additional observations from a re-analysis of the deposited data

Results flagged for a closer look

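KIFC3 drew attention because the PMA effect differed between cells with and without Ceefourin 2 when the difference itself was tested with the replicate block. The difference of the log2 fold changes was -1.23 in that fit (edgeR adjusted p = 0.018), and -1.21 without the block (edgeR adjusted p = 0.34). Limma on either TPM scale called no kinesin for this difference. KIFC3 had 36.1 and 45.4 CPM in PMA plus Ceefourin 2, 45.9 and 55.3 CPM in PMA, 3.44 and 4.06 CPM in Ceefourin 2, and 1.52 and 2.45 CPM in untreated cells. In both replicate pairs Ceefourin 2 went with a lower value beside PMA and a higher value without PMA.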

How the results depend on the processing

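Each group has 2 libraries, which limits the precision of every value, and low-count members such as KIF26A rest on few reads. Kinesin calls against untreated, 6 higher and 15 lower after PMA, became 2 higher with limma on either TPM scale, and 5 to 6 higher and 12 to 16 lower when 1 library was left out. Without replicate 1 of both PMA groups, the libraries with the most mitochondrial counts, they were 5 and 12. In PMA plus Ceefourin 2 against Ceefourin 2, 6 higher became 2 with log2(TPM + 1) and 3 with log2(TPM + 0.1), and leaving out 1 library gave 6 to 7 higher and 12 to 14 lower. The replicate block raised the calls to 2 higher in PMA plus Ceefourin 2 against PMA, to 3 higher and 1 lower in Ceefourin 2 against untreated, and to 1 lower in the interaction. DESeq2 and the fit without a count filter each gave 1 higher in Ceefourin 2 against untreated and 1 lower in the interaction. Leaving out 1 library gave 0 calls in these 3. Beside these counts and the members named in the text, the block changed no other kinesin call. KIF9 turned to -0.44 and -0.47 on the TPM scales. The summed mitotic TPM after PMA, -1.30 in log2, was -1.12 from CPM, -1.10 with KIF2A counted as mitotic, and -1.45 to -1.14 without 1 library. With Ceefourin 2 in both groups -1.42 became -1.19, -1.20 and -1.53 to -1.30. Leaving out 1 library gave -0.20 to 0.11 for the mitotic sum in PMA plus Ceefourin 2 against PMA and 0.04 to 0.11 in Ceefourin 2 against untreated. For the transport sum the PMA difference of 0.06 was 0.23 without KIF5B and -0.06 to 0.19 without 1 library. In PMA plus Ceefourin 2 against PMA 0.06 was 0.13 from CPM and 0.02 to 0.10 without 1 library, and Ceefourin 2 against untreated gave 0.08 to 0.33. The transport sum in PMA plus Ceefourin 2 against Ceefourin 2, -0.08, turned to 0.01 without mitochondrial genes, 0.13 from CPM and 0.12 without KIF5B, with -0.15 to -0.01 without 1 library. The cause of these shifts was not tested.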
